A study of Mus musculus with 24 samples.

Results

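This account compares 6 arrays, 3 from AcP-expressing and 3 from CD25-expressing cortical neuron cultures after IL-1b, out of 24 arrays in the series. The arrays were chosen by their titles and every probe set other than the manufacturer's controls was compared, 17340 genes in all at 1 probe set per gene. Genes were then separated into those called higher with AcP and those that rose with AcP but were not called higher than in CD25 cultures. The latter had no called response in CD25 cultures.

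The cells are described as embryonic cortical neurons of Il1rap-/- mice, which lack the accessory protein of the IL-1 receptor, so the controls carried this deletion too. Markers of other cell types were also read. The 19 astrocyte markers had summed intensities of 42454 to 51973 on CD25 IL-1b arrays and 49597 to 52936 on AcP IL-1b arrays. Which cells carried the differences below was not tested. The cultures had been made to express CD25, AcP, AcPb or AcP with AcPb, and were kept for 4 h with 10 ng/ml IL-1b or with a control stimulus, with 3 arrays in each of 8 groups. The 4 groups used most here are CD25 control, CD25 IL-1b, AcP control and AcP IL-1b. How the receptor chains were introduced, in which of the cells they were made and how many animals each culture held are not given in the sources used here. Nor do the labels say whether replicate arrays stand for separate cultures or animals. P-values therefore cover only the spread among these samples, and that spread may be technical.

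IL-1b is an inflammatory cytokine that binds the receptor IL1R1, which signals only once the accessory protein AcP joins it. The complex then recruits the adaptor MyD88 and IRAK kinases, which release the transcription factor NF-kB from its IkB inhibitors and activate MAP kinases. In the nervous system this pathway is known for inducing chemokines, acute phase proteins and feedback inhibitors within hours. AcPb is an alternative form of AcP found in the nervous system. CD25, the IL-2 receptor's alpha chain, has no part in IL-1 signalling and served as the control protein.

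Array medians lay between 55.02 and 66.41 intensity units over the 24 arrays, and 16.4% to 18.22% of an array's values were below 0. Correlations between replicate arrays ran from 0.985 to 0.987 for CD25 IL-1b and from 0.988 to 0.989 for AcP IL-1b. AcP controls, on which every AcP response rests, had the widest spread, with correlations of 0.977 to 0.984. Their SD had a median of 0.174 over genes (log2), beside 0.104, 0.126 and 0.106 for CD25 control, CD25 IL-1b and AcP IL-1b. Il1rap read between 115 and 143 on the 6 stimulated arrays, and the AcP minus CD25 difference was 0.07 ± 0.08 (log2, limma adjusted p = 0.7). Il2ra, the gene of CD25, read between 18.2 and 42.3. Neither gene separated the arms. An introduced coding sequence may lack the probed stretch, so neither level tests whether the labels are right. Il1r1 read below 0 on all 6 arrays on the probe set used, and a reading at background does not show that the receptor was absent.

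After IL-1b, 6 of 28 chemokines and 8 of 25 NF-kB pathway genes were higher in AcP than in CD25 cultures, Cxcl1 by 13.7-fold. Lower with AcP were 10 of 19 reactive astrocyte genes and 15 of 23 dividing cell genes. By limma, 519 genes were higher with AcP at an adjusted p under 0.05, which is 2.99% of the genes tested, and 653 were lower, 3.77%. The median difference over all genes was 0 log2 units. Arrays of the 2 groups did not overlap for 4864 genes, 28.1% of those tested, among them all 519 higher genes and 651 of the 653 lower ones. Single arrays moved these counts, to 287 or 308 higher without AcP IL-1b replicate 2 or 3, to 315 or 312 without CD25 IL-1b replicate 2 or 3, and to 416 or 420 lower without CD25 IL-1b replicate 3 or AcP IL-1b replicate 2.

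With AcP, IL-1b raised 53 genes over AcP controls, 0.306% of those tested. With CD25 the same test called 0 genes (0%), against 906 at an unadjusted p under 0.05. The 53 genes fell into 28 that ended higher than in stimulated CD25 cultures and 25 that were not called higher, named held genes below. The values that made the split were the AcP and CD25 responses and the stimulated difference, so levels in those groups are descriptions. Just inside the threshold for ending higher were Cxcl5 at 0.73 (adjusted p = 0.047) and Gbp6 at 0.82 (adjusted p = 0.049). Just outside were H2-K1 at 0.27 (adjusted p = 0.11) and Plekhf1 at 0.40 (adjusted p = 0.19), all log2 differences from limma.

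**Figure D1:**
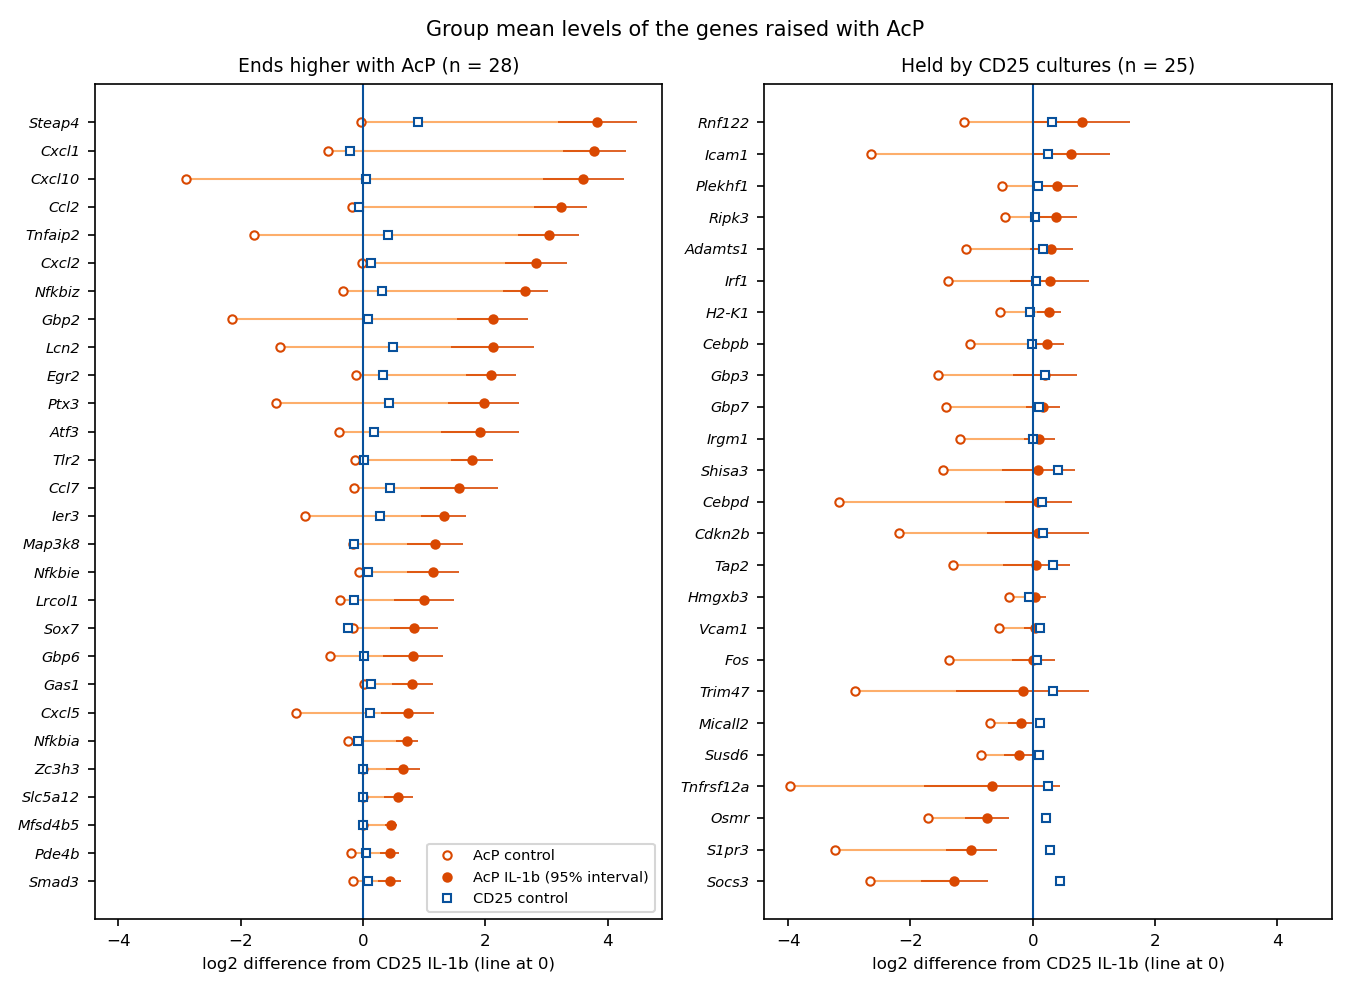
Mean levels of the 53 genes raised with AcP, each relative to its mean in CD25 IL-1b cultures (vertical line at 0), in log2 units. Filled circles are AcP IL-1b with the 95% interval of the difference, open circles AcP control and open squares CD25 control; the 28 genes on the left end to the right of the line, and all 25 on the right start to its left.

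Chemokines were among the most separated genes. Cxcl1, which attracts neutrophils, read 172, 233 and 323 on the 3 CD25 IL-1b arrays and 3118, 4005 and 3263 on the 3 AcP IL-1b arrays. The difference was 3.78 ± 0.25 log2 units (13.7-fold, limma adjusted p = 1.4e-07), and every AcP array lay far above every CD25 array. Its 2 further probe sets differed by 2.14 ± 0.19 and 5.89 ± 0.30. Before IL-1b it read 187, 202 and 212 with CD25 and 156, 146 and 159.8 with AcP, a difference of -0.35 ± 0.25 that was not called (adjusted p = 0.46).

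Ccl2, a chemokine that draws monocytes, showed the same form at a lower level. It read 55.9, 74.6 and 79.1 with CD25 and 761, 986 and 646 with AcP after IL-1b, a difference of 3.23 ± 0.21 log2 units (limma adjusted p = 1.4e-07). Cxcl2, a further neutrophil chemokine, read 11.3, 15.3 and 12.3 with CD25 and 179, 248 and 153 with AcP. Its 2.83 ± 0.24 log2 units rest on CD25 values close to the 16 units added before the logarithm, as do those of the monocyte chemokine Ccl7 at 1.57 ± 0.30.

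Cxcl10, a ligand of the receptor CXCR3 on T cells, differed from Cxcl1 and Ccl2 in where it started. After IL-1b it read 201, 196 and 178 with CD25 and 2348, 2831 and 2356 with AcP, a difference of 3.60 ± 0.32 log2 units (limma adjusted p = 3e-06). Unstimulated CD25 cultures read 227, 175 and 193, whereas unstimulated AcP cultures read -2.38, 13.7 and 29.2. The unstimulated difference was thus -2.94 log2 units, and AcP cultures passed the CD25 level from below. Cxcl5, a neutrophil chemokine, also began lower, at a difference of -1.21, and ended at 0.73 ± 0.20, a call lost under 12 of 23 alternative settings.

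Of 28 chemokines tested, 6 were higher and 1 lower with AcP after IL-1b, and their median difference was -0.02, beside 0 over all genes. The lower one was Cxcl12, a chemokine of resting brain tissue, at 506, 551 and 713 with CD25 and 303, 287 and 306 with AcP. Its difference was -0.93 ± 0.09 log2 units (limma adjusted p = 9.9e-06), after -1.11 before IL-1b.

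**Figure D2:**
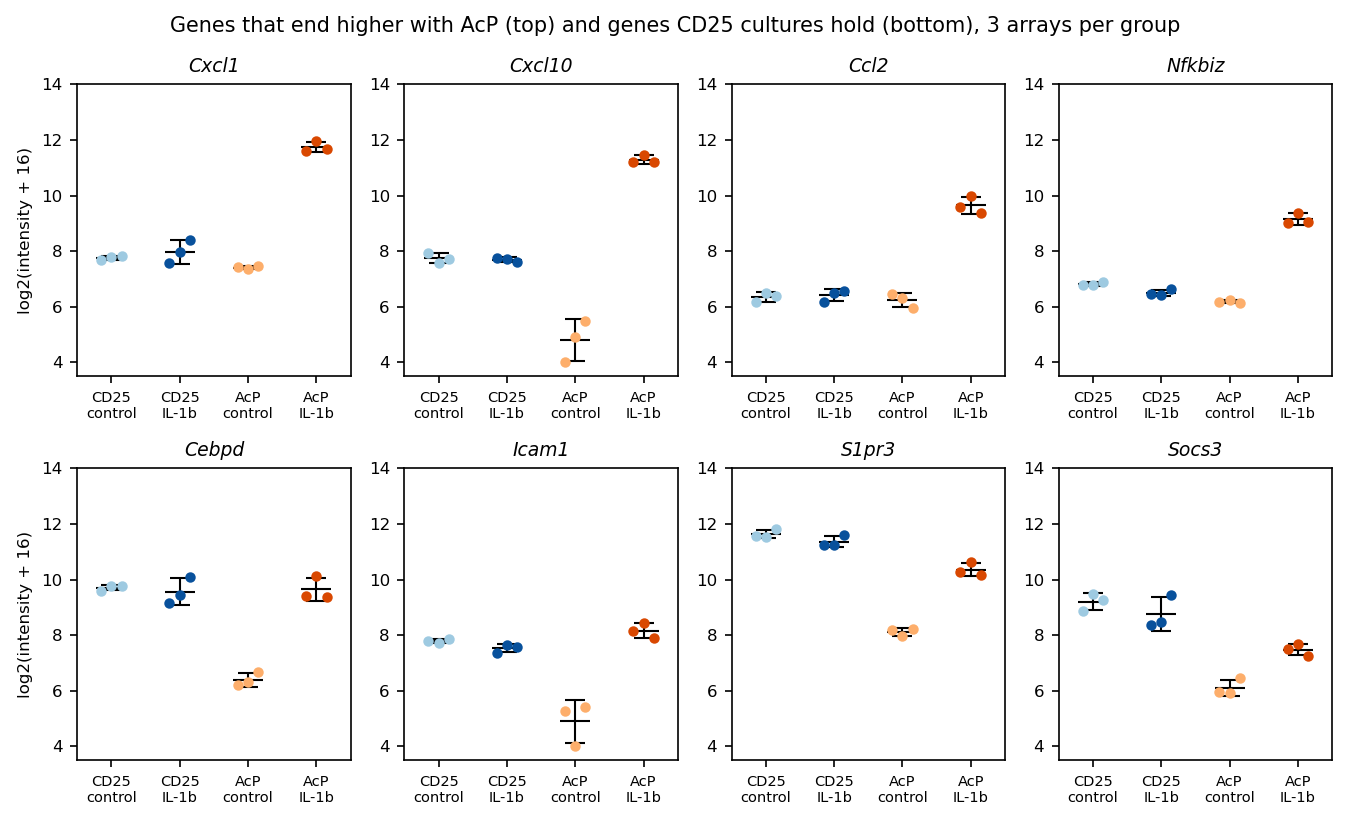
Levels of 4 genes that ended higher with AcP (top) and 4 held genes (bottom) on the 12 arrays of both arms, as log2(intensity + 16) with values below 0 set to 0. Points are arrays and bars the mean and SD of 3 arrays. In the top row only AcP IL-1b stands high, while in the bottom row AcP control stands lowest. There AcP IL-1b overlaps CD25 IL-1b for Cebpd, lies above it for Icam1 without a call, and stays below it for S1pr3 and Socs3.

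Some feedback genes of NF-kB rose to levels above CD25 as well. Nfkbiz, an atypical IkB protein that acts with NF-kB in the nucleus, read 71.8, 68.6 and 82.8 with CD25 and 499, 653 and 516 with AcP after IL-1b. That is 2.66 ± 0.18 log2 units (limma adjusted p = 1.8e-07), and 1 of its 3 probe sets, a dim one, was not called. Nfkbia, the classical IkB-alpha inhibitor, was bright in both arms, at 3118, 3145 and 3138 with CD25 and 4739, 5817 and 5061 with AcP. Its smaller difference of 0.72 ± 0.09 (adjusted p = 5.4e-05) exceeded the replicate spread, and all 5 of its probe sets were called higher.

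Tnfaip2, a gene induced by tumour necrosis factor, read 50.1, 63.0 and 103 with CD25 and 602, 848 and 629 with AcP, a difference of 3.04 ± 0.24 log2 units. Of its 3 probe sets 1 was not called. Nfkbie, the IkB-epsilon inhibitor, differed by 1.14 ± 0.20 and Map3k8, a MAP kinase kinase kinase, by 1.17 ± 0.22 from values near 0. Of 25 NF-kB pathway genes tested, 8 were higher and 0 lower with AcP, and the median was 0.22. Without AcP IL-1b replicate 2 the count of higher genes was 5. Besides the 5 described, the higher genes were Tnip1, Nfkbib and Cyld, inhibitors of the pathway, at 0.63 ± 0.14, 0.58 ± 0.14 and 0.30 ± 0.08, whose AcP responses were not called. Tnfaip3, also of this list, differed by 1.28 ± 0.41 and was not called (limma adjusted p = 0.083). Its AcP response of 0.98 was not called either, and its further probe set differed by 0.33 ± 0.32.

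Acute phase and innate defence genes made up the next group. Steap4, a metal reductase, read 0.95, -17.9 and -35.3 with CD25 and 153, 271 and 240.1 with AcP. Because the CD25 arrays lay at or below 0, its 3.83 ± 0.31 log2 units depend on the 16 units added, and a dimmer probe set missed the call. Lcn2, which withholds iron from bacteria, read 150.3, 121 and 113 with CD25 and 544, 832 and 491 with AcP, a difference of 2.12 ± 0.32 (limma adjusted p = 0.00057).

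Ptx3, a pentraxin of the acute phase, read 189.9, 179.8 and 368 with CD25 and 884, 1334 and 751 with AcP, or 1.97 ± 0.27 log2 units. Tlr2, a receptor for bacterial lipoproteins, differed by 1.79 ± 0.16 after IL-1b and by -0.15 ± 0.16 before it. Both Lcn2 and Ptx3 had been lower in unstimulated AcP cultures, with differences of -1.85 and -1.85. Of 22 genes of this list, 4 were higher and 2 lower with AcP. The lower ones were Serpina3n, a protease inhibitor of reactive astrocytes, at -1.30 ± 0.20, and Nod1, a receptor for bacterial cell wall fragments, at -1.25 ± 0.25. On the unstimulated arrays 4 of the 22 had been lower and 0 higher.

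Among early response genes, Egr2, a zinc finger factor, read 66.6, 60.5 and 90.4 with CD25 and 329.6, 427 and 325 with AcP, a difference of 2.09 ± 0.20 log2 units (limma adjusted p = 5e-06). Atf3, a stress-induced repressor, differed by 1.91 ± 0.30 from CD25 values near 0, and Ier3, an early survival gene, by 1.32 ± 0.18. Of 29 immediate early genes tested, 4 were higher and 1 lower. The fourth higher gene was Egr3, at 0.32 ± 0.09 with no called response, and the lower one was Klf4, at -0.71 ± 0.17. Without IL-1b 6 of the 29 had been lower and 0 higher.

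The guanylate-binding protein gene Gbp2, an interferon-inducible GTPase, read 71.2, 62.9 and 66.2 with CD25 and 335, 416 and 291 with AcP, 2.12 ± 0.27 log2 units apart (limma adjusted p = 0.00013). Gbp6 differed by 0.82 ± 0.23 on the probe set with the highest mean over 24 arrays, a call lost under 12 of 23 settings. On its other probe set it differed by 2.67 ± 0.25 (adjusted p = 3.9e-06). Differences under 1 log2 unit separated 4 further genes. Pde4b, a phosphodiesterase that breaks down cyclic AMP, differed by 0.44 ± 0.08, Smad3, a TGF-beta signal transducer, by 0.44 ± 0.09, and Gas1, a growth arrest gene, by 0.81 ± 0.16. Sox7, a transcription factor, differed by 0.83 ± 0.18. The further, dimmer probe sets of Pde4b, Smad3 and Sox7 were not called, and that of Sox7 differed by -0.05 ± 0.29. The remaining Lrcol1, Zc3h3, Slc5a12 and Mfsd4b5 read below 31 on every AcP IL-1b array, so their calls lie near background.

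Of the 28 genes, 8 had been lower in unstimulated AcP cultures, where 5.55% of all genes were called lower, and 20 were not called there. The 8 were Cxcl10, Tnfaip2, Gbp2, Lcn2, Ptx3, Ier3, Nfkbiz and Cxcl5. The response with AcP exceeded that with CD25 by a test of the difference itself for 19 of the 28 and for 11 of the 25 held genes, against 0.173% of all genes. These 30 were all the genes called higher in that test, which shares its arrays with the choice of the members.

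Promoter sequences are shown for 3 of the genes that ended higher and 2 of the held genes, because they carry the motifs that were counted. Each is the 250 bases before the gene's start from RefSeq, build GRCm38.p6, 5′ to 3′ on the gene's strand. Capitals mark a kappa-B motif, bound by NF-kB, in the first 3 and a STAT motif (TTCNNNGAA) in the last 2. They are Cxcl1 at chr5:90890995-90891244 (plus strand), Cxcl10 at chr5:92348890-92349139 (minus), Nfkbia at chr12:55492648-55492897 (minus), Socs3 at chr11:117969367-117969616 (minus) and Icam1 at chr9:21015690-21015939 (plus).
Cxcl1: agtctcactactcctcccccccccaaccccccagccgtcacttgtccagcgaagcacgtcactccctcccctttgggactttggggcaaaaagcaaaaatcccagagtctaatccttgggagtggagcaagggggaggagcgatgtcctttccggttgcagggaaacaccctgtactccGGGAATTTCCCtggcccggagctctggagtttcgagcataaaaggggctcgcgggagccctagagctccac
Cxcl10: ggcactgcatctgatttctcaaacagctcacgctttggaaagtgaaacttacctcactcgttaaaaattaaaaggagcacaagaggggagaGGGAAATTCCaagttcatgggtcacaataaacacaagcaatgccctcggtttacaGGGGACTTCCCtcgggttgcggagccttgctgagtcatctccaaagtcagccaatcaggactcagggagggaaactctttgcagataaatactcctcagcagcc
Nfkbia: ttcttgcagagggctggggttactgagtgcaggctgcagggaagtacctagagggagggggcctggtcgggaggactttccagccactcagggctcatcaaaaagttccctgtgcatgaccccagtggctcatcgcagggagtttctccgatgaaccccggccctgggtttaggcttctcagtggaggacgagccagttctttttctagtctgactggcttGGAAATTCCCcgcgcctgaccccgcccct
Socs3: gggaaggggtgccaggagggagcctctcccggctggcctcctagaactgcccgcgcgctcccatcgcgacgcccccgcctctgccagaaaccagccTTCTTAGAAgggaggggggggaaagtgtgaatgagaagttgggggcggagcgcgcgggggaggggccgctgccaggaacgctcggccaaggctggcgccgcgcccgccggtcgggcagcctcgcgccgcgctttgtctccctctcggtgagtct
Icam1: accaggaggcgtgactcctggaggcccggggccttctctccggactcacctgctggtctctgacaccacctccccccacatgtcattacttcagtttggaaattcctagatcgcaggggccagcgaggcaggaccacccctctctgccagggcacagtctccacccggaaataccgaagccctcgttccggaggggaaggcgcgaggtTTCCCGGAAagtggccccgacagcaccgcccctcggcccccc

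The motifs were searched on both strands, and where the reverse strand matches a base apart the capitals run over 11 bases. Of the 28 genes that ended higher, 19 were in the promoter table and 11 of those had a kappa-B motif in at least 1 promoter, 57.9%. Of the 25 held genes, 20 were in the table and 3 had one, 15%, beside 8.23% of all 27025 genes. A C/EBP core (TTGCNNAA) was present for 3 and 1 genes respectively, 15.8% and 5%, beside 10.8% of all. The STAT motif, searched after the values were seen, was present for 3 and 4 genes, 15.8% and 20%, beside 8.13%. A match is a run of letters and not a shown site, and no motifs of different kinds overlapped in these promoters. The kappa-B letters searched were GGGRNNYYCC, with R for A or G and Y for C or T, so sites with other letters were missed. The Icam1 promoter holds tggaaattcc, which departs from the pattern in its first letter and was not counted. Near matches were not searched in either set, so the shares do not show which genes lack a site.

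The 25 held genes rose with AcP by 0.44 to 3.30 log2 units but were not called higher than in stimulated CD25 cultures. Their number depended on single arrays, with 15 without AcP control replicate 2 or AcP IL-1b replicate 2 and 53 without AcP control replicate 3. Which genes were held moved too. Of the 25, 12 stayed held without AcP IL-1b replicate 2, and 13, 14 and 20 without AcP control replicates 1, 2 and 3. With array weights 11 stayed held. The median difference of the 25 genes after IL-1b was 0.09 log2 units, beside 1.44 for the 28 genes that ended higher and 0 over all genes. Their CD25 response ran from -0.44 to 0.06 and was called for none of them. In unstimulated AcP cultures 24 of the 25 were lower than in CD25 controls, the exception being Ripk3. That follows largely from the way they were chosen, since a gene that rises with AcP and ends level with an unresponsive arm started lower. The 95% intervals given for them are not adjusted for the number of genes.

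In 3 held genes CD25 cultures stayed higher after IL-1b. S1pr3, a receptor for sphingosine 1-phosphate, read 3029.6, 2958 and 3597 in CD25 controls and 2399, 2415 and 3063 after IL-1b. With AcP it read 272, 232 and 285 and then 1220.2, 1560.3 and 1139, so a rise of 2.24 ± 0.20 log2 units ended at -1.0 ± 0.20 from CD25 (95% interval -1.42 to -0.59, limma adjusted p = 0.0048). All 3 of its probe sets pointed the same way and 2 were called.

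Socs3, a feedback inhibitor of cytokine receptors that signal through STAT3, read 312, 339.8 and 683 with CD25 and 166, 188 and 136 with AcP after IL-1b. AcP controls had read 45.2, 44.8 and 70.8. The stimulated difference was -1.28 ± 0.26 (95% interval -1.83 to -0.73, limma adjusted p = 0.0064), with the third CD25 array well above the others. Further Socs3 probe sets differed by -1.50 ± 0.29 (adjusted p = 0.0039) and -0.40 ± 0.52 (adjusted p = 0.77). The AcP rise was called on neither of them. Osmr, the oncostatin M receptor, which signals through STAT3, read 417, 403 and 492 with CD25 and 238, 290.2 and 234 with AcP, or -0.75 ± 0.17 (adjusted p = 0.016). Dimmer Osmr probe sets differed by -0.09 ± 0.27 and -1.33 ± 0.41, and neither the difference nor an AcP rise was called on them. Without CD25 IL-1b replicate 3 the Osmr difference was -0.66 and was no longer called, nor was it called without AcP IL-1b replicate 1 or 3.

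Stat3 itself was lower with AcP, at 1238, 1262 and 1770.2 with CD25 and 905, 866 and 933 with AcP, a difference of -0.63 ± 0.13 log2 units (limma adjusted p = 0.006). Its AcP response of 0.39 ± 0.13 was not called, so it is not among the held genes. Of 11 genes for IL-6 family receptors and STAT3, 0 were higher and 2, Osmr and Stat3, were lower. Without IL-1b 4 of the 11 had been lower and 0 higher, with a median difference of -0.40 beside -0.28 after it.

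The C/EBP factors, which act with NF-kB on acute phase genes, were not separated after IL-1b. Cebpd read 762, 854 and 855 in CD25 controls and 553, 674 and 1074 in stimulated CD25 cultures. In AcP cultures it went from 57.5, 62.6 and 84.6 to 671, 1104 and 651, a rise of 3.26 ± 0.26 log2 units. The stimulated difference was 0.09 ± 0.26 with a 95% interval of -0.46 to 0.63, and the arrays of the arms overlapped. Cebpb went from 152, 153 and 206 to 387, 488 and 409 with AcP, beside 310.2, 357 and 418 with CD25, and differed by 0.24 ± 0.14 (95% interval -0.05 to 0.52). Of 5 C/EBP genes tested 0 were called in either direction after IL-1b. On the unstimulated arrays 2 of the 5 had been lower with AcP and 0 higher.

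Fos and Irf1 are early transcription factors of the growth factor and interferon pathways. Fos rose from 214, 321 and 295 to 691, 898 and 632 with AcP and read 697, 654 and 843 with CD25, a difference of 0.01 ± 0.17 (95% interval -0.35 to 0.36). Irf1 rose from 73.9, 69.2 and 108 to 286, 302 and 293, and its CD25 arrays at 152, 295 and 305 left a difference of 0.28 ± 0.31 with an interval of -0.38 to 0.93. The first CD25 array read low for Irf1, and the interval holds differences in both directions.

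Adhesion molecules behaved in the same manner. Icam1, which leukocytes grip through integrins, rose from 22.1, -11.5 and 26.8 to 269, 333 and 220.0 with AcP and read 149, 186 and 176 with CD25. The arrays did not overlap, yet the difference of 0.62 ± 0.30 was not called (95% interval -0.01 to 1.26, limma adjusted p = 0.29). Vcam1, a partner molecule in leukocyte adhesion, ended within 0.03 ± 0.08 of CD25 with a narrow interval of -0.14 to 0.20. Of 26 adhesion and proteolysis genes, 0 were higher and 3, Cd44, Itgav and Mmp14, lower with AcP. On the unstimulated arrays 7 of the 26 had been lower and 0 higher.

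Interferon-inducible GTPases and MHC class I genes formed a further set. Irgm1 rose from 83.3, 63.1 and 115 to 228, 224 and 246 with AcP against 228, 213 and 203 with CD25, a difference of 0.11 ± 0.12. Gbp7 and Gbp3 differed by 0.17 ± 0.13 and 0.21 ± 0.25. H2-K1, a class I heavy chain, differed by 0.27 ± 0.09 without overlap of its arrays (95% interval 0.07 to 0.47), and Tap2, a peptide transporter, by 0.06 ± 0.26. H2-K1 has near-identical relatives, and in 2 of its 4 probe sets the AcP response was not called, so its value is uncertain.

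Of 33 interferon response genes, 2 were higher and 3 lower with AcP after IL-1b. Before IL-1b 0 had been higher and 10 lower. The lower ones afterwards were Ifitm3, an antiviral membrane protein, at -1.34 ± 0.20, Ifit2 at -0.91 ± 0.16 and Irf9, a subunit of the interferon-activated factor, at -0.55 ± 0.10. B2m, the light chain of class I, was lower, at -0.48 ± 0.09, and Psmb10, an immunoproteasome subunit, was higher, at 0.34 ± 0.09, the 2 calls among 13 class I genes. Without IL-1b 4 of the 13 had been lower and 0 higher.

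The other held genes included precise and imprecise ones. Tnfrsf12a, the receptor of the cytokine TWEAK, read -102, -139 and -39.7 in AcP controls and 146, 180.2 and 107 after IL-1b, beside 204, 177 and 353 with CD25. Its difference of -0.67 ± 0.53 had an interval of -1.77 to 0.44, which holds the Socs3 difference as well as 0. Adamts1, a secreted protease, and Plekhf1 differed by 0.30 ± 0.17 and 0.40 ± 0.16. Cdkn2b, a cell cycle inhibitor, Trim47 and Shisa3 differed by 0.09, -0.16 and 0.09, and Susd6, Micall2 and Hmgxb3 by -0.22 ± 0.12, -0.20 ± 0.09 and 0.05 ± 0.08. Rnf122 and Ripk3, a necroptosis kinase, were dim and differed by 0.80 and 0.38. A dimmer probe set of Rnf122 was called higher with AcP, at 0.81 ± 0.23 (adjusted p = 0.046). On the probe sets used not one of these was called, which does not show that the arms were equal.

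Levels in the AcPb and AcP with AcPb arms were not part of the comparisons that chose the 53 genes. Their 12 arrays did enter the shared estimate of the spread and the choice of probe sets. With only the 12 arrays of the CD25 and AcP arms fitted, 16 of the 25 held genes and 21 of the 28 kept their class. In cultures with both chains, 20 of the 28 genes that ended higher also rose with IL-1b, and so did 10 of the 25 held genes, where 0.208% of all genes were called higher. The 10 were Adamts1, Cebpb, Cebpd, Gbp3, Gbp7, H2-K1, Icam1, Irgm1, S1pr3 and Vcam1, and 24 of the 25 pointed upward. With AcPb alone 0 of the 53 were called, where limma called 2 genes in either direction (0.0115% of all) and 1637 passed an unadjusted p under 0.05 in either direction. Cxcl10 read 19.6, 21.6 and 18.7 after IL-1b with AcPb and 1998, 2246 and 3225 with both chains.

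Unstimulated AcPb cultures also stood below CD25 controls for most of the held genes. CD25 controls were higher than AcPb controls for 20 of the 25, where 3.16% of all genes were called so. Cebpd read 75.0, 81.8 and 73.9 in AcPb controls, 106, 132 and 233 in controls with both chains and 762, 854 and 855 with CD25. S1pr3 read 483, 448 and 379.8 in AcPb controls and 381, 418 and 618 in controls with both chains, all below the CD25 controls. Icam1 read 9.50, 24.6 and 15.3 in AcPb controls and 204, 197 and 217 with CD25. The CD25 controls had entered the comparisons that chose these genes, while the AcPb arrays had entered only the spread and the choice of probe sets.

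**Figure D3:**
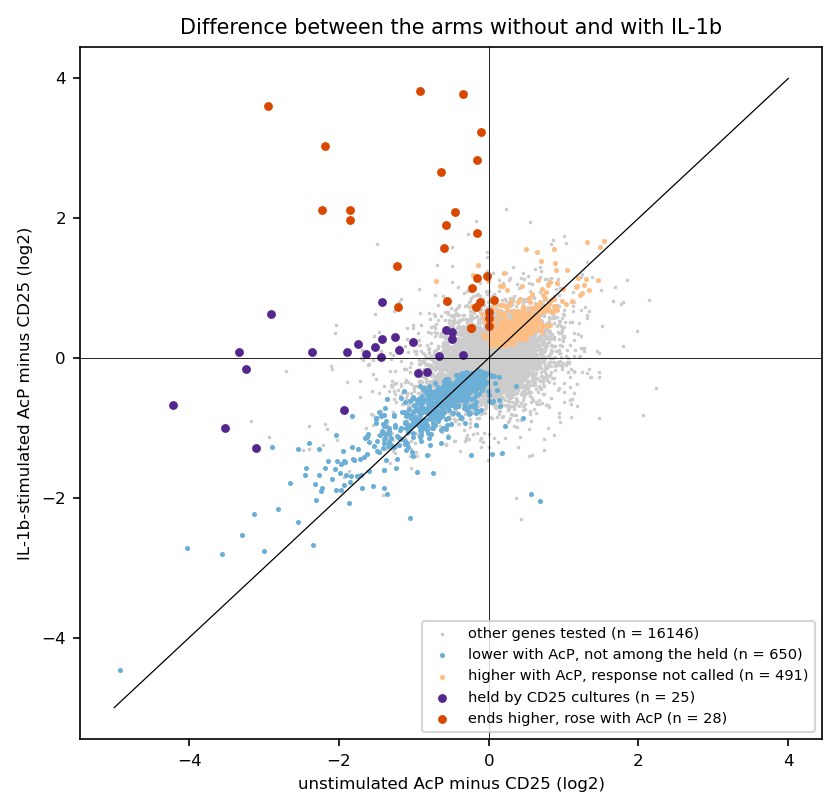
AcP minus CD25 difference of each of 17340 genes without IL-1b (horizontal) and with IL-1b (vertical), in log2 units from separate sets of 6 arrays. The line marks equal differences; the 28 genes that rose and ended higher and the 25 held genes lie above it, while 473 of the 491 other higher genes and 635 of the 653 lower genes have the same sign on both axes.

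The remaining 491 genes that were higher with AcP after IL-1b had no called AcP response. Their median AcP response was 0.05 log2 units beside a median stimulated difference of 0.39. On the unstimulated arrays 272 of the 491 were already higher with AcP, where 3.7% of all genes were, and 473 were above 0, as were 52% of all genes. AcP controls helped to choose the 491, and a gene that ends higher without a called response will often have started higher. All 519 higher genes were called on the difference between stimulated arrays, but unstimulated arrays entered the shared estimate of the spread. The 519 hold the same 272, since none of the other 28 was higher before IL-1b. Rhoq, a small GTPase, read 700.4 ± 93.8 (SD, n = 3) and 1692 ± 106 (SD, n = 3) in stimulated CD25 and AcP cultures, a difference of 1.26 ± 0.10 log2 units after a difference of 0.89 before. Epas1, a hypoxia-inducible factor, differed by 1.15 ± 0.11 after 1.19, and Htra1, a serine protease, by 1.05 ± 0.08 after 1.28. These 3 were picked after their values were seen. Glra3, a glycine receptor subunit, and the predicted gene Gm10037 had the largest differences of this group, 1.66 ± 0.28 and 1.68 ± 0.43, from CD25 readings near 0.

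Cholesterol synthesis genes were part of that group. Of 22 tested, 11 were higher and 0 lower with AcP after IL-1b, with a median difference of 0.44, and 14 had been higher before it. Mvd, mevalonate decarboxylase, read 386, 388 and 422 with CD25 and 694, 750.4 and 689.7 with AcP, a difference of 0.81 ± 0.08 (limma adjusted p = 9.1e-06). Fdps, which makes farnesyl diphosphate, differed by 0.61 ± 0.08, and Dhcr7, the last enzyme of a branch, by 0.60 ± 0.08. The AcP responses of these 3 genes lay between -0.22 and 0.03, and 0 of the 22 were called in that response.

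Few neuron markers were separated. Thy1, a surface protein, read 1700.2, 1616 and 1802 with CD25 and 2263, 2374 and 2317 with AcP, or 0.44 ± 0.06 log2 units, and Nefh, the heavy neurofilament chain, differed by 0.60 ± 0.12. They were 2 higher of 25 tested, with 0 lower, and without IL-1b 2 had been higher and 0 lower too. The summed intensity of the 25 markers ran from 71729 to 78971 on CD25 IL-1b arrays and from 78957 to 83287 on AcP IL-1b arrays, and none of the markers lay at or below 0 on all 6.

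Astrocyte markers were called in both directions. Sparcl1, an astrocyte matricellular protein, read 3768, 3516 and 2368 with CD25 and 5227, 5255 and 5799 with AcP, a difference of 0.78 ± 0.14. Slc1a2, the main glutamate transporter, differed by 0.52 ± 0.13, Ndrg2 by 0.67 ± 0.15, Gjb6, connexin 30, by 0.53 ± 0.14 and Apoe by 0.30 ± 0.08. They were the 5 higher of 19 astrocyte markers, with Id3 and Aldh1l1 lower, a count that single arrays moved. It was 1 without CD25 IL-1b replicate 3 or AcP IL-1b replicate 2, 2 without CD25 IL-1b replicate 2 or AcP IL-1b replicate 3, and 3 without AcP IL-1b replicate 1. On the unstimulated arrays 6 of the 19 had been higher and 3 lower.

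Lower with AcP were 653 genes, and in 466 of them AcP controls were already lower than CD25 controls on the separate unstimulated arrays, where 5.55% of all genes were. Of the 653, 635 were below 0 there, as were 46.3% of all genes. With AcP 3 of the 653 rose, the held genes Socs3, S1pr3 and Osmr, and 2 fell, where 0.306% and 0.0461% of all genes did. In bulk samples fewer cells of a type and less RNA per cell cannot be told apart, which bears on each group below.

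Of 19 reactive astrocyte genes 10 were lower and 0 higher, S1pr3 among the lower. Before IL-1b 10 of the 19 had been lower and 0 higher, with a median difference of -0.83 beside -0.41 after it. Gfap, the intermediate filament of astrocytes, read 2549, 1732 and 1546 with CD25 and 620.5, 544 and 622 with AcP, a difference of -1.65 ± 0.29 log2 units (limma adjusted p = 0.002). Vim, vimentin, read 6138, 5574 and 6670.4 with CD25 and 3242, 3161 and 3337 with AcP, or -0.91 ± 0.12. Cd109, a TGF-beta co-receptor, read 198, 304 and 630.2 with CD25 and below 0 on all AcP arrays, so its -4.47 ± 0.53 depends on the 16 units added. The summed intensity of the 19 genes was 14180 to 17228 on CD25 IL-1b arrays and 7948 to 7964 on AcP IL-1b arrays, without overlap. The AcP response of Gfap, 0.35 ± 0.29, was not called.

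Contractile and matrix genes followed. Tagln, an actin-binding protein of smooth muscle, read 570.2, 733 and 1389.7 with CD25 and 131, 109.8 and 103 with AcP, a difference of -2.71 ± 0.55 (limma adjusted p = 0.0057). Lgals1, galectin 1, read 1169, 1554 and 3506 with CD25 and 277, 245 and 258 with AcP, or -2.76 ± 0.30. The third CD25 array was the highest in both, and the CD25 arrays were spread more widely than the AcP arrays. Fn1, fibronectin, differed by -1.69 ± 0.26, Myl9, a myosin light chain, by -1.86 ± 0.19 and S100a6, a calcium-binding protein, by -2.35 ± 0.22. Among 22 endothelial, mural and fibroblast markers 8 were lower and 0 higher. That count was 4 without CD25 IL-1b replicate 3 or AcP IL-1b replicate 2 and 5 without AcP IL-1b replicate 3. Their summed intensity was 4192 to 6527 with CD25 and 2265 to 2659 with AcP. Of these markers Slco1a4, an endothelial transporter, lay at or below 0 on all 6 arrays. Before IL-1b 8 of the 22 markers had been lower and 0 higher.

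Other genes had large differences. Glycam1 differed by -2.81 ± 0.68, but the third CD25 array read low and the call was lost without CD25 IL-1b replicate 1 or 2 or AcP IL-1b replicate 2 or 3. Slc14a1, a urea transporter of astrocytes, differed by -2.68 ± 0.25, Loxl1, a collagen cross-linking enzyme, by -2.52 ± 0.51, and Cyp1b1, a cytochrome P450, by -2.23 ± 0.18. Anxa3, Crip1 and Emp1 differed by -2.15 ± 0.23, -2.07 ± 0.35 and -2.03 ± 0.18. Col16a1, a collagen chain, differed by -2.29 ± 0.60 and Gm12440 by -2.04 ± 0.49, and neither had been called lower before IL-1b. The Col16a1 call was lost without any 1 stimulated array other than AcP IL-1b replicate 2.

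Dividing cell genes were lower with AcP in 15 of 23 tested, with 0 higher and a median of -0.77 log2 units. Top2a, the topoisomerase of dividing cells, read 484, 435 and 362 with CD25 and 181, 192 and 181 with AcP, or -1.14 ± 0.13 (limma adjusted p = 4.5e-05). Cdc20, an activator of mitotic exit, read 474, 388 and 489 with CD25 and 149, 147 and 169 with AcP, a difference of -1.44 ± 0.14. Birc5, survivin, differed by -1.85 ± 0.29 and Mki67, the proliferation antigen, by -1.64 ± 0.33. The list's summed intensity ran from 11417 to 13279 with CD25 and from 7587 to 8510 with AcP, and 13 of the 23 had already been lower before IL-1b.

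**Figure D4:**
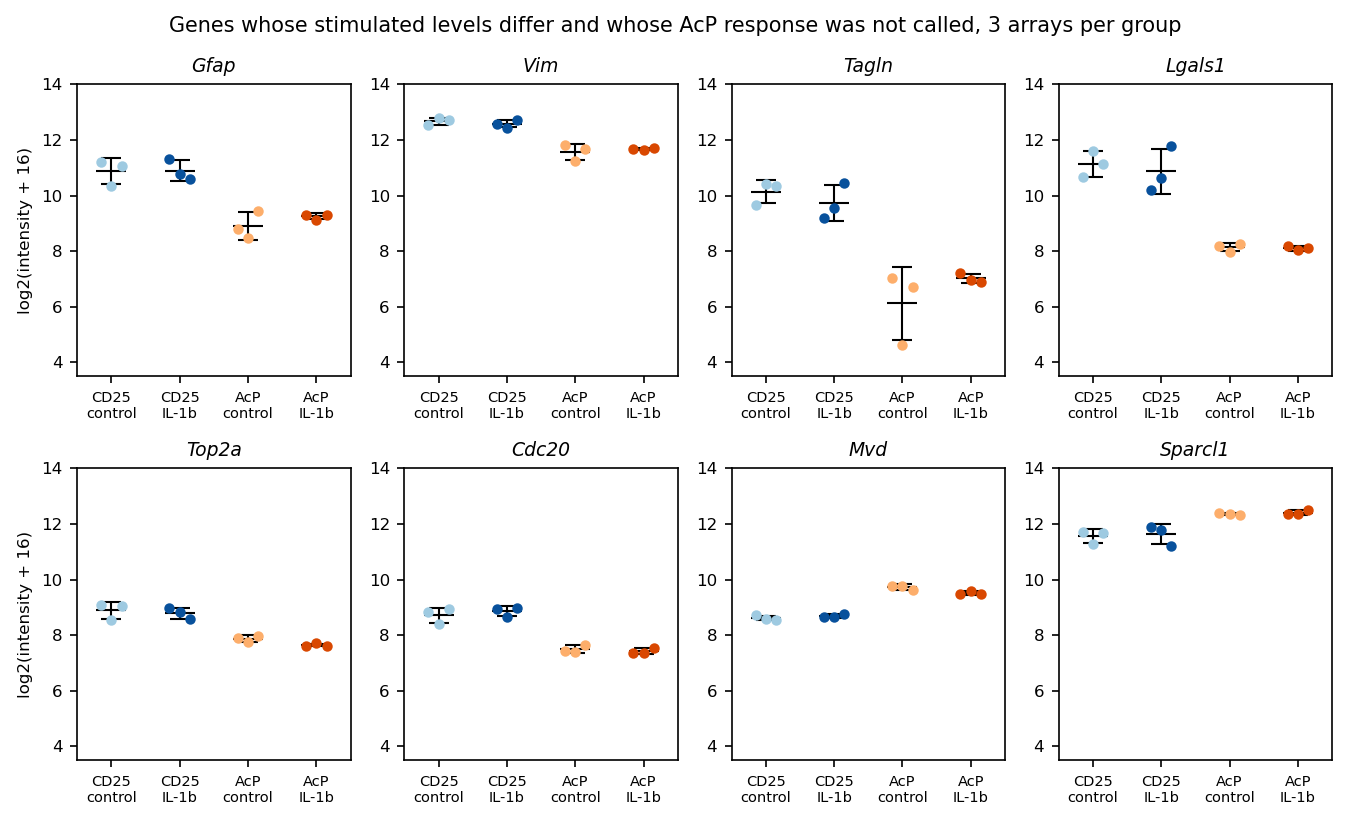
Levels of 8 genes that differed after IL-1b with no called AcP response, on the 12 arrays of both arms, as log2(intensity + 16) with values below 0 set to 0. Points are arrays and bars the mean and SD of 3 arrays; within each arm the control and IL-1b arrays overlap for these genes, except Mvd and Top2a in the AcP arm, and every gene but Mvd and Sparcl1 is lower with AcP.

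Stress and antioxidant genes gave 9 lower and 0 higher of 22, with Nqo1, a quinone reductase, at -1.30 ± 0.32 and Srxn1, sulfiredoxin, at -0.57 ± 0.14. Without CD25 IL-1b replicate 3 the count was 1 lower and 1 higher. The lower count was 5 without CD25 IL-1b replicate 2, 3, 4 and 2 without AcP IL-1b replicates 1, 2 and 3, and 3 with array medians centred. Hmox1, haem oxygenase, differed by -0.47 ± 0.13 and the metallothioneins Mt1 and Mt2 by -0.35 ± 0.08 and -0.41 ± 0.09. Before IL-1b 11 of the 22 genes had been lower and 0 higher.

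**Figure D5:**
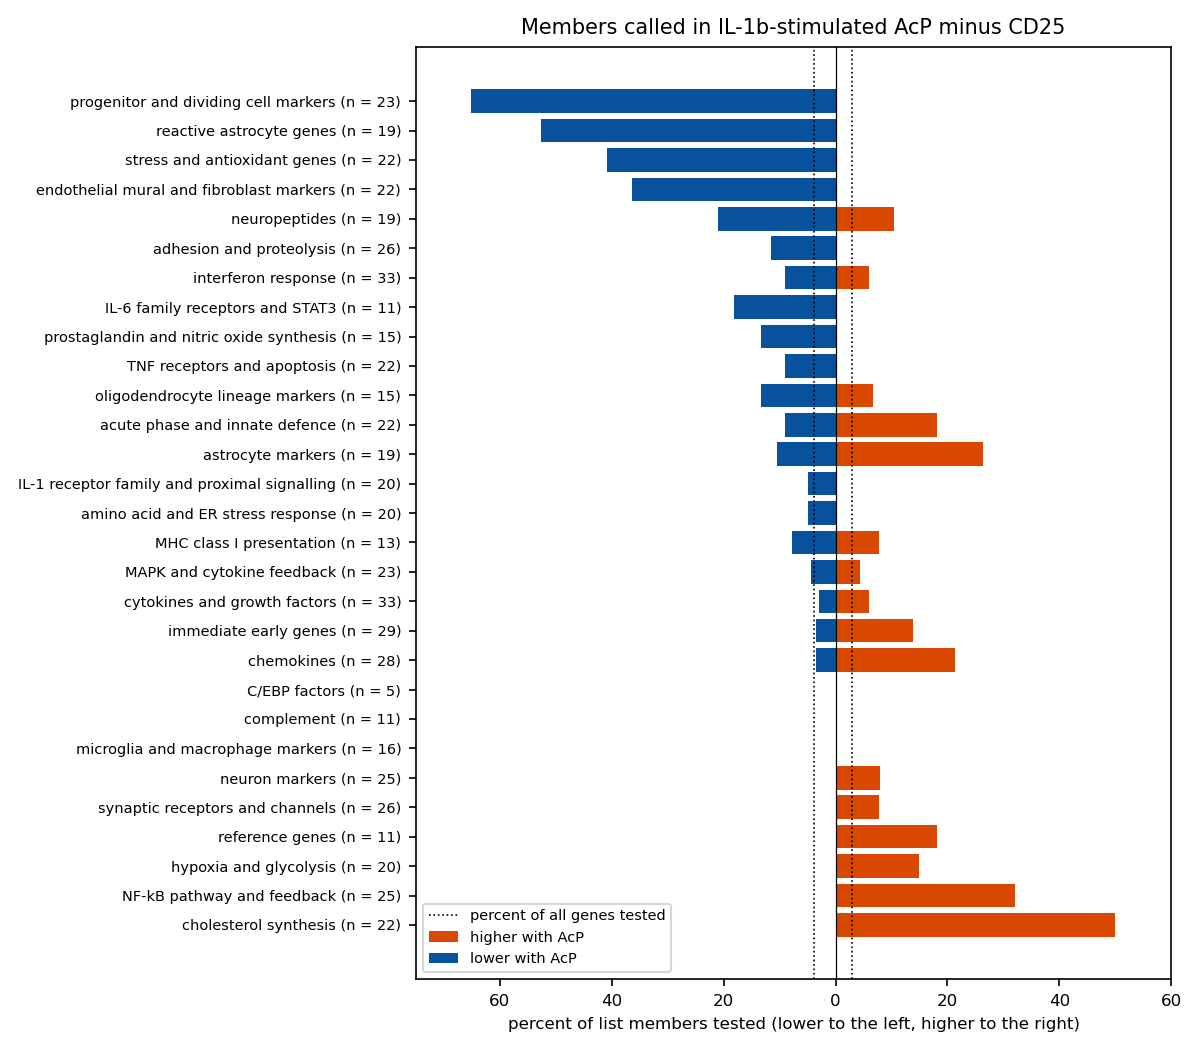
Percent of the tested members of each gene list called higher (right) or lower (left) in IL-1b-stimulated AcP minus CD25 cultures, with the number tested after each name. Dotted lines mark the 2.99% of all genes called higher and 3.77% called lower; NF-kB and cholesterol synthesis genes reach furthest right, dividing cell and reactive astrocyte genes furthest left.

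Receptors of inflammatory signals gave few calls. Tnfrsf1a, the main TNF receptor, read 767, 912 and 988 with CD25 and 555, 496 and 513 with AcP, a difference of -0.75 ± 0.13 (limma adjusted p = 0.0017), and with Bcl2 made up the 2 lower of 22 genes for TNF receptors and apoptosis. Without IL-1b 7 of the 22 had been lower and 0 higher. Cd44, a hyaluronan receptor, differed by -1.10 ± 0.20. Of 20 genes of the IL-1 receptor family and its proximal signalling, 1 was called, Irak1, a receptor-associated kinase, at -0.32 ± 0.06. Il1r2, the decoy receptor, at -1.36 ± 0.39 (adjusted p = 0.052) and Il1rn, the receptor antagonist, at 0.60 ± 0.29 (adjusted p = 0.28) were not called.

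Microglia and macrophage markers gave 0 calls of 16, with a summed intensity of 703 to 1109 with CD25 and 786 to 983 with AcP, so they overlapped. Complement genes gave 0 of 11. Among neuropeptides Crh and Vip were higher, by 0.69 ± 0.18 and 0.55 ± 0.10, and Cartpt, Adcyap1, Npy and Scg2 lower. The lower count was 1 without CD25 IL-1b replicate 3 or any 1 AcP IL-1b array, and 2 without CD25 IL-1b replicate 2 or with array medians centred. Without IL-1b 2 of the 19 neuropeptides tested had been higher and 5 lower. Of 11 reference genes Hprt and Tfrc were higher, and the lists not described gave 3 or fewer calls in each direction. The part that the cell type markers have in the chemokine and NF-kB differences was not tested. Before IL-1b 3 of the 28 chemokines were lower and 0 higher with AcP, and 5 of the 25 NF-kB genes were lower and 1 higher.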

How the data were processed

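Biotin-labelled RNA was hybridised to 1 single-colour Affymetrix array per sample, per the labels' protocols. The authors deposited linear probe set intensities, some below 0, and their summarisation, background method and scaling are not given in the sources used here. Each intensity below 0 was set to 0, 16 was added and log2 was taken, so a fold on this scale understates differences of dim genes; no deposited value was on a log2 scale. Groups came from the sample titles.

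All 24 arrays were fitted with 8 group means in limma 3.58.1 (R 4.3.3; lmFit and eBayes, 16 residual and 1.834 prior degrees of freedom). Errors after ± on log2 differences are standard errors. P-values were adjusted by Benjamini-Hochberg over the 41856 non-control probe sets that varied of 45037, with 40 control probe sets left out, and a call is an adjusted p under 0.05. The number of arrays, 3 a group, limits the precision, and an exact permutation test of 3 against 3 cannot go below 0.1. The procedure was tested on simulated data.

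A gene is its brightest probe set with 1 symbol in the platform annotation. Of the probe sets 34945 had 1 symbol, 932 several and 9160 none, and 34741 matched RefSeq by Entrez identifier with 0 symbols changed. That gave 18193 genes, of which 853 had the same value on all arrays and 17340 were tested. Besides all 53 raised genes, the rule for naming took the 15 largest higher and 12 largest lower genes without array overlap and up to 4 members of each list. Further called list members are named beside their counts. The members, lists and rule were chosen with earlier results of these data known.

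Alternatives were other floors and offsets, a generalised log, quantile normalization, centring on array medians, a filter on dim probe sets, fewer arrays in the fit, an intensity trend, array weights, the replicate number as a block and each array left out. List counts with arrays left out or rescaled, the AcPb arrays and the STAT motif were added after the data were seen.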

Additional observations from a re-analysis of the deposited data

Results flagged for a closer look

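The rise after IL-1b was greater in the AcP arm than in the CD25 arm for 30 genes, by a test of the difference itself (limma, adjusted over all probe sets). Cxcl10 had the largest of these, at 6.54 ± 0.45 log2 units (adjusted p = 3.3e-07), which holds both its low start in AcP controls and its high level after IL-1b.

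Among the genes that ended higher with AcP the differences of response, in log2 units, were Tnfaip2 5.23, Steap4 4.75, Gbp2 4.34, Cxcl1 4.13, Lcn2 3.97, Ptx3 3.82, Ccl2 3.34, Nfkbiz 3.29, Cxcl2 2.98, Egr2 2.55, Ier3 2.54, Atf3 2.47, Tlr2 1.94, Cxcl5 1.94, Nfkbia 0.89, Smad3 0.67, Pde4b 0.67 and Mfsd4b5 0.45. Among the genes that CD25 cultures held they were Icam1 3.53, Cebpd 3.42, S1pr3 2.52, Gbp3 1.96, Gbp7 1.68, Adamts1 1.56, Fos 1.45, Irgm1 1.31, Cebpb 1.24, H2-K1 0.77 and Vcam1 0.69. The held genes had started lower in AcP controls, and of these 11 only S1pr3 was called different between the arms after IL-1b. Values of Steap4, Atf3 and Mfsd4b5 rest on readings at or near 0 in AcP controls. Cxcl10, Tnfaip2, Gbp2, Icam1, Cxcl2 and Cxcl5 were also dim in AcP controls. The sizes of their differences of response thus depend on the units added before the logarithm too.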

How the results depend on the processing

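No called difference of a named gene changed sign under the alternatives run. Uncalled ones near 0 did, in 11 genes, Cebpd, Fos and Irf1 among them, and the chemokine median ran from -0.04 to 0.03. Among 164 genes named or called, 3754 pairs of a gene and a setting gave 3471 on the same side of the threshold, 215 that lost the call and 68 that gained it, and 31 of the 91 called genes were called under every alternative. Fewer arrays in the fit, which leave fewer degrees of freedom, lowered the counts between the arms. With only the 12 arrays of both arms, probe sets higher after IL-1b fell from 996 to 273 and lower ones from 1106 to 528, and with only the 6 stimulated arrays to 137 and 258. Genes that ended higher fell from 519 to 151 and 64 in these settings, and genes that ended lower from 653 to 313 and 144. With the 12 arrays the unstimulated comparison gave 328 higher and 880 lower probe sets against 1084 and 1738, and the AcP response 5 lower against 25. Array weights gave 50 probe sets raised with AcP against 83, 5 lowered, 522 higher and 1040 lower without IL-1b, and 11 held genes against 25. Centring on array medians gave 660 higher probe sets without IL-1b. The causes of the last 2 shifts were not tested.

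Leaving out single arrays gave 533 to 1317 higher and 712 to 1328 lower probe sets after IL-1b, 287 to 625 genes ending higher and 416 to 759 ending lower. It gave 63 to 143 probe sets raised and 13 to 126 lowered with AcP, 605 to 2076 higher and 1091 to 2668 lower without IL-1b, and 48 to 188 with unequal responses against 56. The 28 genes that rose and ended higher became 24 to 33, and the 25 held genes 15 to 53. AcP control replicate 3 gave the upper bound of the response, unstimulated and held counts. CD25 responses numbered 2 probe sets, against 5 with values under 16 set to 16 and 1 with 64 added. They numbered 0 with the generalised log, centring, the dim filter, 12 arrays, the trend or the replicate block, and 0 to 15 with an array left out.

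The replicate number did not meet the condition for pairing, that every same-numbered pair correlates over 0.1. Deviations correlated at 0.006 to 0.02 between AcP IL-1b and CD25 IL-1b, at 0.052 to 0.187 between CD25 IL-1b and CD25 control and at -0.094 to 0.044 in the other pairs of groups. Not every array correlated best with its own number. With it as a replicate block, 964 probe sets were higher and 1134 lower after IL-1b, 505 genes ended higher, 662 ended lower, 26 rose and ended higher and 30 were held. Dim genes are limited by background, since 16.4% to 18.22% of an array's values were below 0.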
